A study of Mus musculus with 8 samples.

Results

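The genes described here were 49 interferon-stimulated genes, a list of sensors, transcription factors and effectors that leaves out the chemokines. A gene was taken as measured where a probe of the bead array carried its symbol, and 46 of the 49 genes had such probes, 72 of the 45281 probes on the array. RNA came from thioglycollate-elicited peritoneal macrophages of 8-week-old C57/BL6 mice, which carried no engineered allele according to the labels. 4 samples were incubated for 24 h with acetylated LDL (Ac-LDL), a modified lipoprotein that loads macrophages with cholesterol and turns them into foam cells, at 120 μg per ml, and 4 were mock-treated controls. The study's methods describe the culture of such cells as an adherent monolayer in medium conditioned by L-929 cells, which both groups then share. The question was which transcripts differ in cholesterol-loaded macrophages. The labels number the samples of each group as biological replicates 1 to 4 without tying them to single animals, so the p values measure the spread between these samples.

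Type I interferons bind the receptor formed by Ifnar1 and Ifnar2, whose kinases Jak1 and Tyk2 phosphorylate Stat2 and other factors. Stat2 and Irf9 belong to the complex ISGF3, which binds the interferon-stimulated response element of its target genes. Macrophages keep many of these genes at a basal level through low, tonic interferon signalling, and the products sense viral nucleic acid, block viral replication or dampen the pathway itself.

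Promoters of several of these genes share letters. RefSeq promoter windows on GRCm38.p6, each of 250 bases before and 50 after a transcription start, were found by gene identifier or symbol for 39 of the 49 genes. Among all words of 10 bases, read on either strand, GAAACTGAAA (TTTCAGTTTC on the other strand) was held by the most members, 8 of 39 (20.5%): Ifit1, Ifit3, Stat2, Oas1a, Igtp, Gbp3, Bst2 and Gbp6, whose window is that of Gbp7. The word occurred in 0.263% of the 27025 genes with a window, and since it was picked for its frequency in the members, the difference is a description. It repeats the letters GAAA, as the interferon-stimulated response element is known to, but a match is not evidence of a bound site. The stretches of the 5 tested genes that hold the word are shown because they let its surroundings be compared. They are written 5′ to 3′ in the direction of the gene, with the word in capitals.
Ifit3, chr19:34583377-34583446, plus strand: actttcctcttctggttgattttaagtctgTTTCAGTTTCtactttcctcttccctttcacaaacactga
Stat2, chr10:128270248-128270315, plus strand: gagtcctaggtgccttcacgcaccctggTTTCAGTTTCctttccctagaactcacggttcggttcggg
Gbp3, chr3:142559969-142560038, plus strand: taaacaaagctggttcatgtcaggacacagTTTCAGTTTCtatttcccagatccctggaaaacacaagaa
Igtp, chr11:58199492-58199555, plus strand: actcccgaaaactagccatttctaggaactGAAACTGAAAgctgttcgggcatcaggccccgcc
Bst2, chr8:71537557-71537626, minus strand: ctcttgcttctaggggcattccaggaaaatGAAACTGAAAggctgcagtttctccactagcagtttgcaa
The word began 122 bases before the start in Ifit3, 222 in Stat2, 45 in Gbp3, 34 in Igtp and 124 in Bst2. No window was found for Usp18, Dhx58, Oas2, Mx1, Mx2, Iigp1, Rtp4, Zbp1, Parp14 or Ifi204.

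The 8 arrays lay on 2 slides, with replicates 1 and 2 of both groups on the first and replicates 3 and 4 on the second, and the slides separated on the first principal component, which held 50.2% of the variance. Between 36.8% and 38.5% of all probes were detected per array. The sterol genes that cells repress on cholesterol loading bore out the labels, as Cyp51 had a log2 fold change of −1.59 and Sqle of −1.41, and both were lower in all 4 pairs, although the limma adjusted p of each was 0.0528. Of the macrophage markers 9 of 10 were detected. Cd68 lay at 0.02, Cd14 at −0.48 and lower in all 4 pairs, and Fcgr1 at 0.61 and higher in all 4 pairs (limma adjusted p = 0.960 for Cd14 and 0.942 for Fcgr1). The summed intensity of the macrophage markers overlapped between the groups, at 62908.9 to 85812.6 on the control arrays and 64893.6 to 81340.5 on the Ac-LDL arrays. Of 6 markers of plasmacytoid dendritic cells, potent producers of type I interferon, Siglech, Ccr9, Klk1 and Ly6d were not detected, and the less specific Tcf4 and Cox6a2 were detected on all 8 arrays, at log2 fold changes of 0.17 and 0.25. All 6 fibroblast markers were detected, with summed intensities of 11509.1 to 16156.1 on the control and 11177.3 to 13138.0 on the Ac-LDL arrays. Among them Col1a2 (−0.23) was lower on every Ac-LDL array than on any control and Col3a1 (−0.21) lower in all 4 pairs, whereas Lum (0.34) was higher in all 4 pairs. Of the neutrophil markers only S100a8 was detected on 4 arrays or more, and its 4 Ac-LDL values all lay above the controls, at a log2 fold change of 0.24. The part of these cells in the results was not tested. In cultured populations such as these, fewer cells of a type and less RNA per cell cannot be told apart.

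Most of the list was detected in these macrophages, treated or not. A probe was called detected on an array where its detection p, which ranks it against negative controls, was at most 0.05, and 30 to 35 of the 46 genes were detected per array. 29 genes had a probe detected on all 8 arrays, 32 had one detected on at least 4 arrays and were tested, and 10 had none detected on any array. Ifitm3, which blocks viral entry at membranes, the immunoproteasome subunit Psmb8, the secreted glycoprotein Lgals3bp and the transcription factor Irf1 had the brightest probes, though intensities of different probes do not rank transcript levels.

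The 14 genes with probes that were not tested included some of the best-known members. Mx1, a dynamin-like antiviral GTPase, was detected on 0 of the 8 arrays, at intensities of 31.9 to 43.6, beside an inferred mean of the negative controls of 38.8 to 41.5. Ifit1, which binds RNA lacking the host cap methylation, was detected on 1 array, the third Ac-LDL array, at 52.8, and lay between 38.9 and 48.5 on the others. Irf7, the factor that amplifies interferon production, was detected on 2 arrays, control 1 and Ac-LDL 2, and ranged from 44.5 to 53.7. Mx2, Ifih1, Ifi203, Ifi44, Iigp1, Isg20, Oas3, Rtp4 and Slfn5 were also undetected on every array, Oas1a was detected on 1, and Gbp6 on at most 2. The 2 Gbp6 probes carry the identifier of the gene the reference table calls Gbp7. A fall of these genes was not measurable here, since their control signals lay at or near background. A rise within the background was not measurable either. A rise to detection on every Ac-LDL array would have put a gene into the test, and none of these genes showed one.

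**Figure D1:**
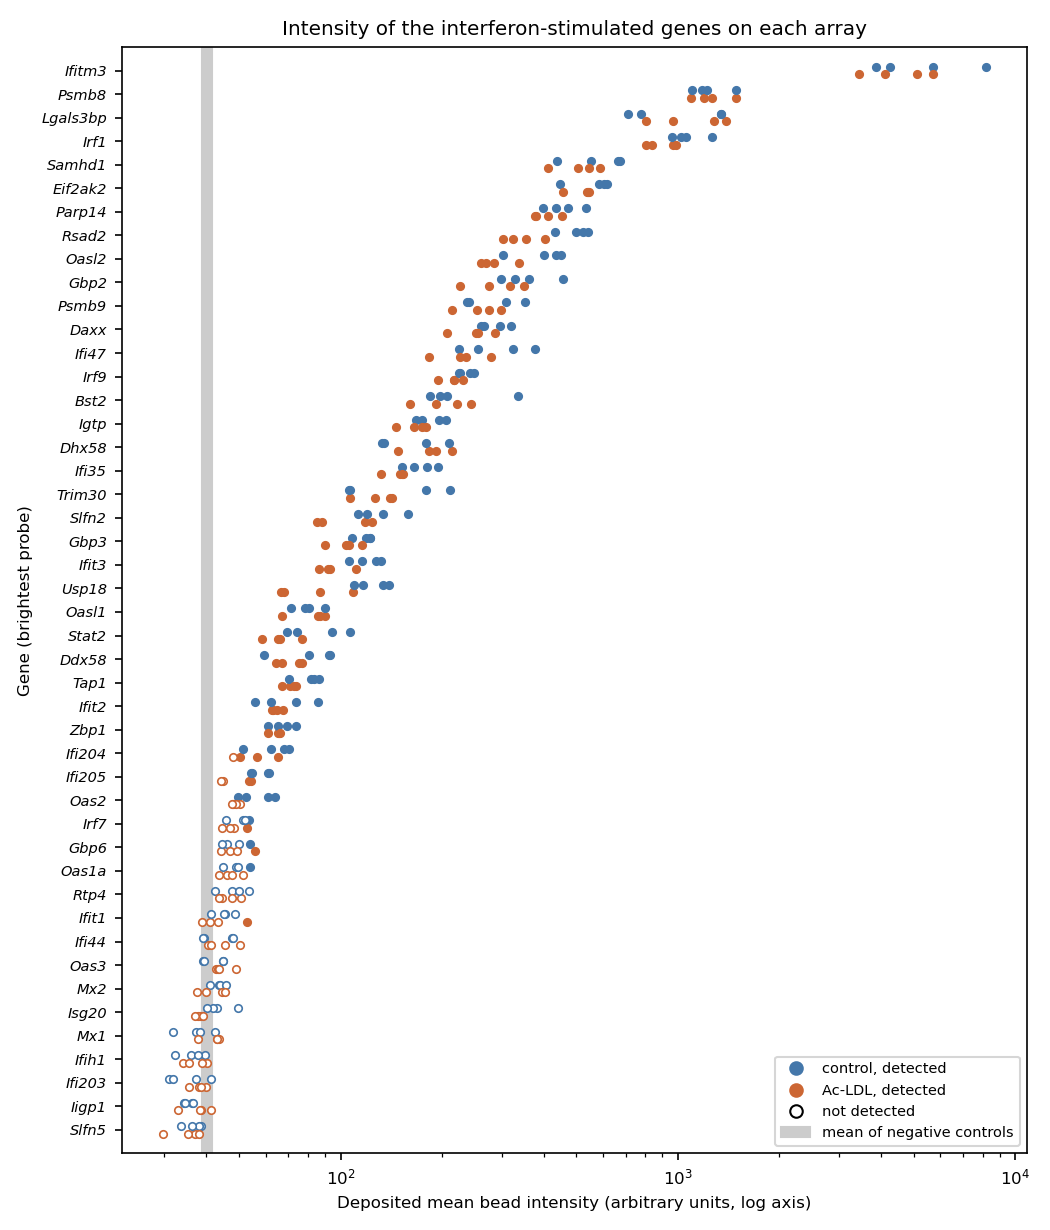
Deposited mean bead intensity (log axis) of the brightest probe of each of the 46 genes on the 4 control and 4 Ac-LDL arrays. Filled points are detected at a detection p of at most 0.05, open points are not, and the grey band spans the inferred means of the negative controls on the arrays, 38.8 to 41.5. The genes from Ifitm3 down to Oas2 were tested, and the 14 below them lie at or near the band.

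No interferon-stimulated gene passed the unpaired test between Ac-LDL and control, and 1, Usp18, passed when arrays were paired by replicate number. Of the 32 tested genes, each taken by its tested probe with the highest mean, 0 had an adjusted p under 0.05 in limma's moderated test, where 0.0483% of all 12423 tested genes, taken the same way, did. At an unadjusted p under 0.05, 5 genes were lower with Ac-LDL (Usp18, Stat2, Rsad2, Oasl2 and Oas2), where 2.55% of all genes were lower, and 0 were higher, where 2.66% were. Oas2 entered the test through its control arrays alone, and over the 29 genes detected on all 8 arrays 4 were lower. For none of the 32 genes did the 4 Ac-LDL arrays all lie below the 4 control arrays, or all above them, which 1.75% and 2.12% of all genes did. The 95% confidence interval of the log2 fold change lay between −1 and 1 for 31 of the 32 genes, all except Usp18 (98.0% of all genes). It lay between −0.5 and 0.5 for 17, or 53.1%, against 76.4% of all genes. For the others a difference beyond 0.5 was not excluded.

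The genes lay below 0 more often than all genes did. 25 of the 32 had a log2 fold change below 0, as did 50.2% of all tested genes. With median scaling in place of quantile normalization 28 of the 32 lay below 0, as did 73.6% of all tested probes. Over the 29 genes detected on all arrays 22 lay below 0, with a median of −0.06. The median of the 32 was −0.10, with quartiles of −0.24 and −0.01, where the quartiles of all 12423 tested genes were −0.09 and 0.09. They ranged from −0.72 for Usp18 to 0.35 for Dhx58. Within 0.2 of 0 lay 20 of the 32, a smaller share than the 83.4% of all tested genes. Arrays of like replicate number were then compared in pairs. With Ac-LDL 11 genes were lower in each of the 4 pairs, where 10.9% of all genes were. They were Usp18, Stat2, Rsad2, Ifit3, Ifi205, Oas2, Ifi47, Gbp2, Gbp3, Irf1 and Ifitm3. Of these, Oas2 was detected on 0 of the 4 Ac-LDL arrays and Ifi205 on 2, so their differences are not fully measured. Some pairs hardly differed, such as pair 1 of Oas2 (−0.01) and pairs 1 and 2 of Ifitm3 (−0.01 in each). Ifi47 read 7.81 on both arrays of pair 2. 3 genes were higher in all 4 pairs, where 11.6% of all genes were: Dhx58, Lgals3bp and Psmb8. The mean log2 level over the 32 genes was 7.29, 7.41, 7.42 and 7.51 on control arrays 1 to 4 and 7.23, 7.38, 7.25 and 7.32 on Ac-LDL arrays 1 to 4. It was lower with Ac-LDL in each pair, and the groups overlapped.

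**Figure D2:**
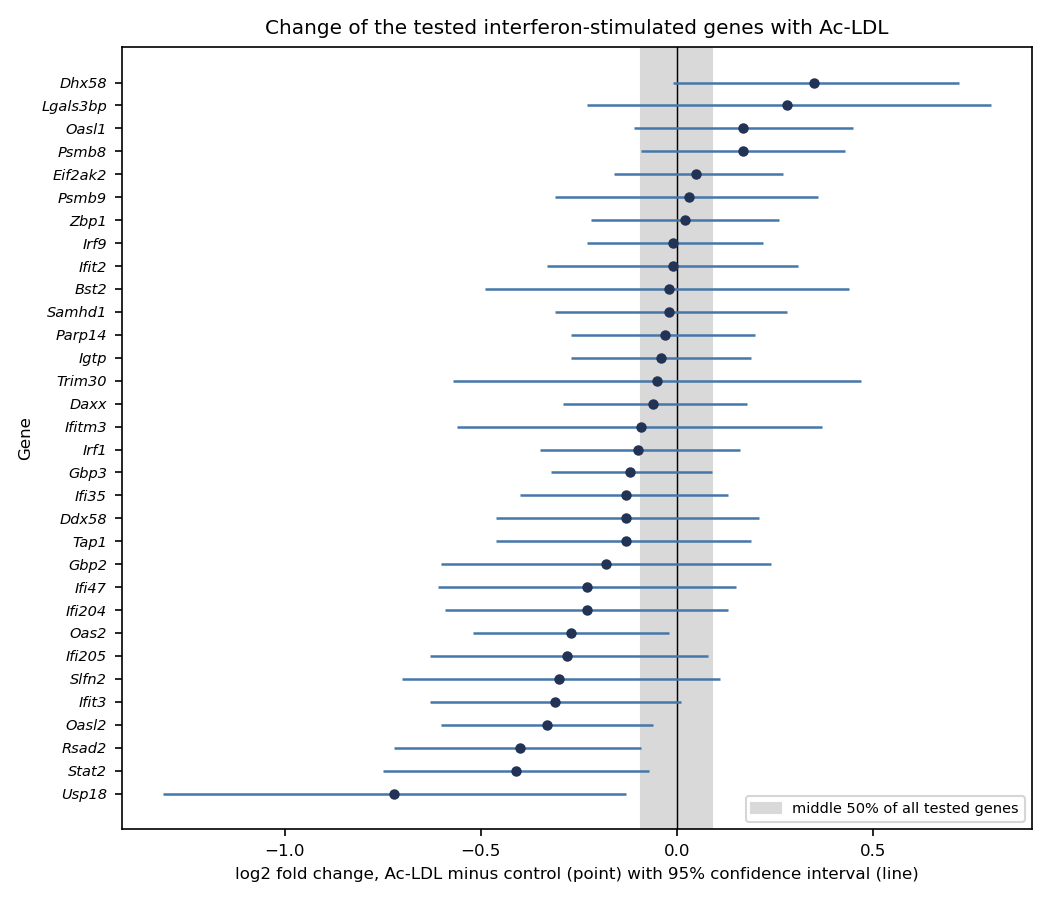
log2 fold change (Ac-LDL minus control, n = 4 arrays per group) of the 32 tested genes with the 95% confidence interval from limma. The grey band holds the middle 50% of all tested genes, from −0.09 to 0.09. Usp18 lies lowest at −0.72 and Dhx58 highest at 0.35.

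Usp18, which removes Isg15 from proteins and restrains the type I interferon receptor, had the largest difference. The value comes from its only tested probe, since its other probe was detected on 0 of the 8 arrays, at intensities of 37.6 to 48.7. The log2 level of Usp18 on control arrays 1 to 4 was 6.61, 7.03, 6.30 and 6.37, and on Ac-LDL arrays 1 to 4 it was 6.16, 6.50, 5.29 and 5.48. Each Ac-LDL array lay below its control, but the groups overlapped, as both Ac-LDL arrays of the second slide were below all others while Ac-LDL 2 was above controls 3 and 4. The level was 1.64-fold higher in control than in Ac-LDL (log2 fold change −0.72, SE 0.27, 95% interval −1.31 to −0.13, limma adjusted p = 0.854). The replicate number was also used as a block, which compares each Ac-LDL array with the control of the same number. In that fit Usp18 was lower with Ac-LDL at a limma adjusted p of 0.0393. It was the 1 gene of the list called lower in that fit, where 0.306% of all genes were, and 0 were called higher, where 0.185% were. At an unadjusted p under 0.05 that fit held 9 genes lower (6.64% of all genes) and 2 higher (7.21%), Dhx58 and Lgals3bp. Among the 9 were Oas2, detected on no Ac-LDL array, and Ifi204 and Ifi205, each undetected on part of them. With the slide as a block the limma adjusted p of Usp18 was 0.0710. In that fit 0 genes of the list were called lower (0.25% of all genes) or higher (0.0966%). At an unadjusted p under 0.05, 8 were lower (5.84%), Oas2 and Ifi205 among them, and 2 higher (6.31%).

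Isg15 itself, the ubiquitin-like modifier that Usp18 removes, had no probe of that symbol. 1 probe, listed under the symbol LOC100038882, carried its gene identifier and was not among the 72. It read 5.87, 6.33, 5.66 and 5.89 on control arrays 1 to 4 and 5.62, 5.90, 5.45 and 5.56 on Ac-LDL arrays 1 to 4. Each Ac-LDL array was below its control and the groups overlapped. The log2 fold change was −0.30 (SE 0.15, limma adjusted p = 0.949, and 0.172 with the replicate block).

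Among the transcription factors, Stat2 was lower and the others lay near 0. Stat2, the subunit of ISGF3 specific to type I and III interferons, had log2 levels of 5.52, 5.68, 6.24 and 5.97 on control arrays 1 to 4 and 5.28, 5.47, 5.60 and 5.42 on Ac-LDL arrays 1 to 4. Its controls of the second slide were the highest of all arrays. Within each slide both Ac-LDL arrays lay below both controls, and the groups overlapped only across the slides, as Ac-LDL 3 was above control 1. The log2 fold change was −0.41 (SE 0.15, limma adjusted p = 0.854, and 0.142 with the replicate block). Irf9, the DNA-binding subunit of ISGF3, was at −0.01 with a 95% interval of −0.23 to 0.22. Irf1, an activator of interferon-response genes, was at −0.10 by its brightest probe and lower in all 4 pairs, but its other 3 tested probes lay at −0.01, 0.15 and 0.17.

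Rsad2, also known as viperin, makes a chain-terminating ribonucleotide that stops viral polymerases. Its log2 level was 8.80, 9.06, 8.58 and 8.79 on control arrays 1 to 4 and 8.53, 8.64, 8.12 and 8.33 on Ac-LDL arrays 1 to 4. The pairs differed by similar amounts on both slides, and 1 Ac-LDL array, the second, was above the lowest control. Rsad2 was 1.32-fold higher in control (log2 fold change −0.40, SE 0.14, 95% interval −0.72 to −0.09, limma adjusted p = 0.835, and 0.0860 with the replicate block). Other membrane effectors lay closer to 0, with Ifitm3 at −0.09 and the virion-tethering protein Bst2 at −0.02.

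The oligoadenylate synthetase family, whose active enzymes make the second messenger that activates RNase L, went both ways. Oasl2 read 8.36, 8.29, 8.59 and 8.56 on control arrays 1 to 4 and 8.10, 8.38, 8.02 and 7.98 on Ac-LDL arrays 1 to 4. It was lower in 3 of 4 pairs and higher in the second. Its log2 fold change was −0.33 (SE 0.12, limma adjusted p = 0.854) by this probe and −0.09 by the other tested probe. Oas2 read 4.75, 4.83, 5.08 and 5.16 on the control arrays and 4.75, 4.77, 4.61 and 4.61 on the Ac-LDL arrays. It was detected on 4 of 4 control arrays and 0 of 4 Ac-LDL arrays, so its Ac-LDL level is only bounded. The control mean of Oas2 was at least 1.12-fold above its Ac-LDL mean, taking on each Ac-LDL array the higher of its own signal and the lowest detected signal. Pairs 1 and 2 hardly differed, by −0.01 and −0.06. Because Oas2 entered the test through its control arrays alone, its limma adjusted p of 0.910 is not used as support. Oasl1, which restrains the translation of Irf7, read 5.64, 5.75, 5.69 and 5.87 on the control arrays and 5.61, 6.15, 5.85 and 6.02 on the Ac-LDL arrays. It was higher in 3 of 4 pairs and the groups overlapped, with a log2 fold change of 0.17 (SE 0.12, limma adjusted p = 0.967), and the other tested probe lay at 0.02.

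Of the RNA-binding effectors, Ifit3, a partner of Ifit1, was lower by 0.11 log2 units on the first slide and by 0.51 on the second (limma adjusted p of the interaction = 0.717). Ifit3 read 6.20, 6.70, 6.56 and 6.58 on control arrays 1 to 4 and 6.14, 6.54, 5.99 and 6.13 on Ac-LDL arrays 1 to 4. The lowest control, the first, lay within the range of the Ac-LDL group. Its log2 fold change was −0.31 (SE 0.15, 95% interval −0.63 to 0.01, limma adjusted p = 0.946, and 0.256 with the replicate block). Eif2ak2, the kinase PKR that halts translation on double-stranded RNA, read 8.98, 8.89, 9.05 and 9.03 on the control and 9.18, 9.09, 9.02 and 8.87 on the Ac-LDL arrays. It was higher with Ac-LDL on the first slide and lower on the second, and its log2 fold change of 0.05 (SE 0.10) turned to −0.08 with median scaling. Ifit2 lay at −0.01, with 0.15 by its second probe, and Samhd1, which depletes nucleotides, at −0.02.

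Dhx58 was the gene with the largest difference upwards. It encodes LGP2, which modulates the sensors RIG-I and MDA5. Its log2 level was 6.60, 6.96, 7.18 and 7.36 on control arrays 1 to 4 and 7.12, 7.40, 7.53 and 7.47 on Ac-LDL arrays 1 to 4. Every Ac-LDL array was above its control, by the most in pair 1 and the least in pair 4, and the first Ac-LDL array lay below controls 3 and 4. Dhx58 was 1.28-fold higher with Ac-LDL (log2 fold change 0.35, SE 0.16, 95% interval −0.01 to 0.72, limma adjusted p = 0.946, and 0.163 with the replicate block). Its second tested probe was also higher in all 4 pairs, by 0.31. RIG-I itself, Ddx58, lay at −0.13 and was lower in 2 of 4 pairs. The DNA-binding proteins Ifi204 and Ifi205 of the p200 family were at −0.23 and −0.28, Ifi205 being lower in all 4 pairs. Both were detected on every control array, but Ifi205 was not detected on Ac-LDL 3 or 4, nor Ifi204 on Ac-LDL 2. Their levels on those arrays are therefore not measured. The tested Ifi205 probe carries that symbol but no gene identifier. The other probes of Ifi205, which carry its identifier, and the other probe of Ifi204 were not detected on any array. Zbp1, a sensor of Z-form nucleic acid, was at 0.02.

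Lgals3bp, the galectin-3-binding protein, read 9.34, 9.59, 10.28 and 10.19 on control arrays 1 to 4 and 9.75, 9.96, 10.44 and 10.38 on Ac-LDL arrays 1 to 4. Every Ac-LDL array was above its control, yet both controls of the second slide were above both Ac-LDL arrays of the first. The log2 fold change was 0.28 (SE 0.23, limma adjusted p = 0.975, and 0.210 with the replicate block). It was 0.11 without control 1, 0.18 without Ac-LDL 3, 0.43 without control 3, 0.13 with array weights and 0.16 with median scaling. Psmb8, which trims peptides for MHC class I, read 9.98, 10.24, 10.14 and 10.35 on the control and 10.20, 10.27, 10.55 and 10.37 on the Ac-LDL arrays. It was higher in all 4 pairs, by little in pairs 2 and 4, with a log2 fold change of 0.17 (SE 0.12, limma adjusted p = 0.961) and 0.07 by its second probe. The neighbouring subunit Psmb9 lay at 0.03 and the peptide transporter Tap1 at −0.13.

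**Figure D3:**
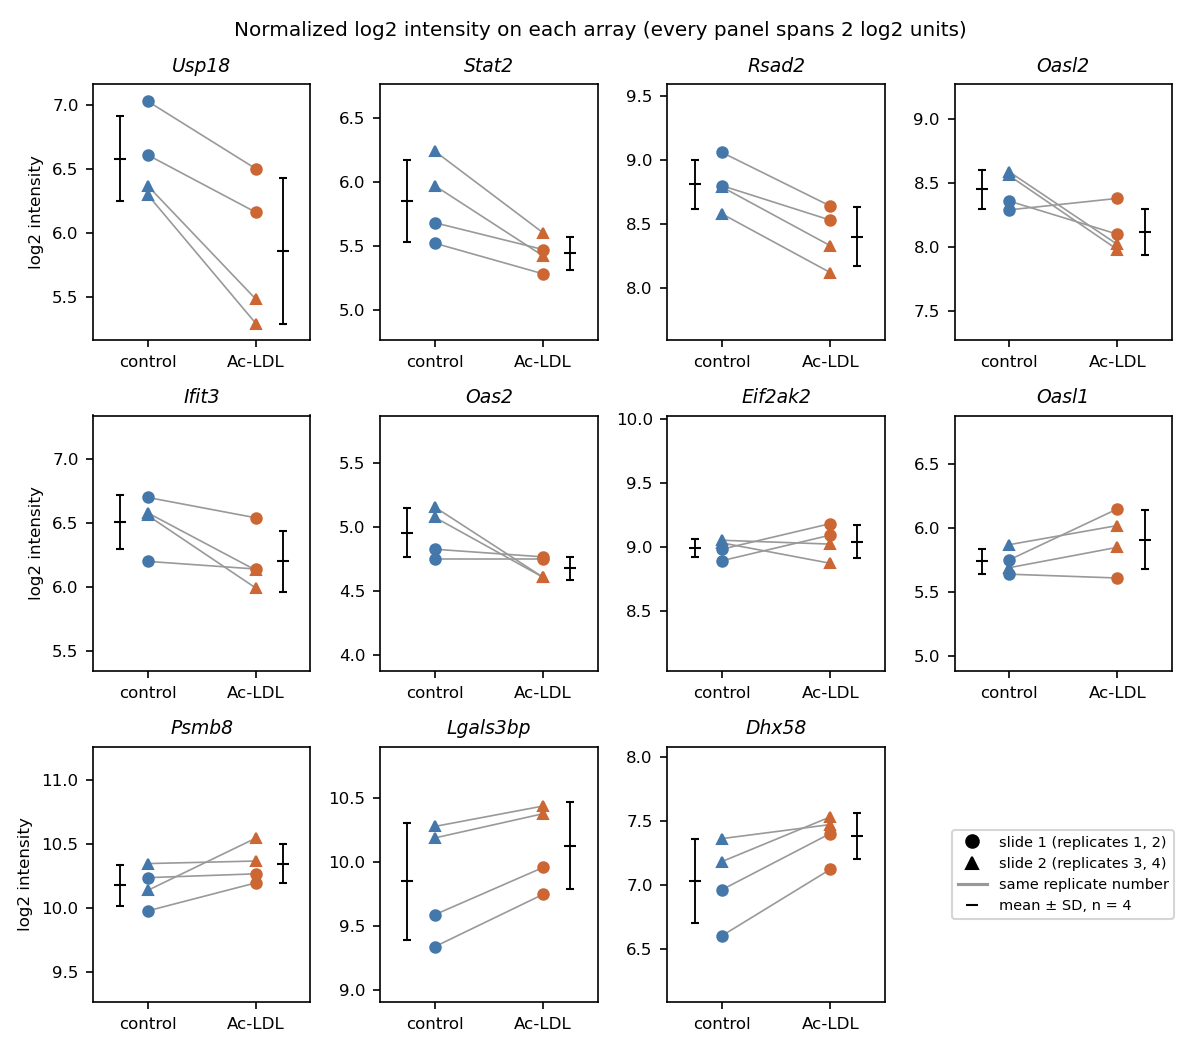
Normalized log2 intensity of 11 genes on each array, with control on the left and Ac-LDL on the right of each panel. Grey lines join like-numbered arrays, circles are the first slide and triangles the second, bars are the mean ± SD (n = 4), and every panel spans the same range. Usp18, Stat2, Rsad2 and Ifit3 slope down in all 4 pairs and Psmb8, Lgals3bp and Dhx58 slope up, while the groups overlap in every panel.

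Of the interferon-induced GTPases, which attack the vacuoles of intracellular pathogens, the 4 that were tested lay below 0. Ifi47 was at −0.23, Gbp2 at −0.18, Gbp3 at −0.12 and Igtp at −0.04, and the first 3 of these were lower in all 4 pairs. The fall of Ifi47 in pair 2 was lost in rounding, at 7.81 on both arrays. The second probe of Gbp3 lay at 0.02. Irgm1, which regulates the other immunity-related GTPases, had no probe of that symbol, but 3 probes listed as Irgm carried its gene identifier, of which 2 were detected on all arrays. The brighter read 11.60, 11.49, 11.72 and 11.55 on control arrays 1 to 4 and 11.43, 11.37, 11.31 and 11.37 on Ac-LDL arrays 1 to 4. Here the groups did not overlap, with the highest Ac-LDL array, the first, just below the lowest control, the second. Of all tested genes 1.75% were lower without overlap. Every such gene has an exact two-sided permutation p of 0.0286, the smallest that 70 assignments allow, so this p adds nothing to the lack of overlap. The log2 fold change was −0.22 (SE 0.09, limma adjusted p = 0.887), and −0.19 by the second probe, whose groups did not overlap either. Both probes lie outside the symbol rule and were looked up after the other genes.

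Slfn2, which keeps T cells and monocytes quiescent, read 6.88 and 6.96 on the first slide's controls and 6.12 and 6.11 on its Ac-LDL arrays, but 6.36 and 6.42 against 6.48 and 6.72 on the second. It was lower with Ac-LDL by 0.80 on the first slide, where both Ac-LDL arrays lay below both controls, and higher by 0.21 on the second, where both lay above. Trim30, listed as Trim30a in the reference table and known to restrain inflammatory signalling, did the opposite, with 6.20 and 6.55 in control against 6.56 and 6.79 with Ac-LDL on the first slide and 7.18 and 7.38 against 6.79 and 6.96 on the second. The leucine-zipper protein Ifi35 lay at −0.13, the ADP-ribosyltransferase Parp14 at −0.03 and the histone chaperone Daxx at −0.06.

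The differences between slides were set against each other in a test of the interaction of treatment and slide, added after the values were seen. An unadjusted p under 0.05 in limma was reached by 4 of the 32 genes, Slfn2, Oas2, Trim30 and Oasl2, against 8.23% of all genes. Oas2 was not detected on any Ac-LDL array, so its value there is not a measured level. An adjusted p under 0.05 was reached by 0.0% of all genes. The smallest adjusted p among the 4 was that of Slfn2 (limma adjusted p = 0.257). Usp18 was lower by 0.49 log2 units on the first slide and by 0.95 on the second (limma adjusted p of the interaction = 0.644), and Stat2 by 0.22 and 0.59 (limma adjusted p of the interaction = 0.652). Over the 32 genes the median difference was −0.06, −0.02, −0.09 and −0.15 in pairs 1 to 4, and 21, 18, 21 and 24 genes were lower. Of all genes, between 48.8% and 51.2% were lower in each pair, with medians between −0.01 and 0.01. The count of 18 in pair 2 was the closest to that share.

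Some members differed between the slides. Ifitm3 read 11.87 to 12.07 on the first slide and 12.35 to 12.83 on the second. Lgals3bp and Trim30 were also higher on every array of the second slide than on any of the first, so that 3 genes were, as were 10.8% of all genes. For Trim30 the slides differed more in control than in Ac-LDL, as its values above show. Gbp2 read 8.35 to 8.57 on the first slide and 7.75 to 8.08 on the second, and with Irf1 and Zbp1 3 genes were lower on every array of the second, as were 14.7% of all genes. What differed between the slides besides the arrays was not tested.

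**Figure D4:**
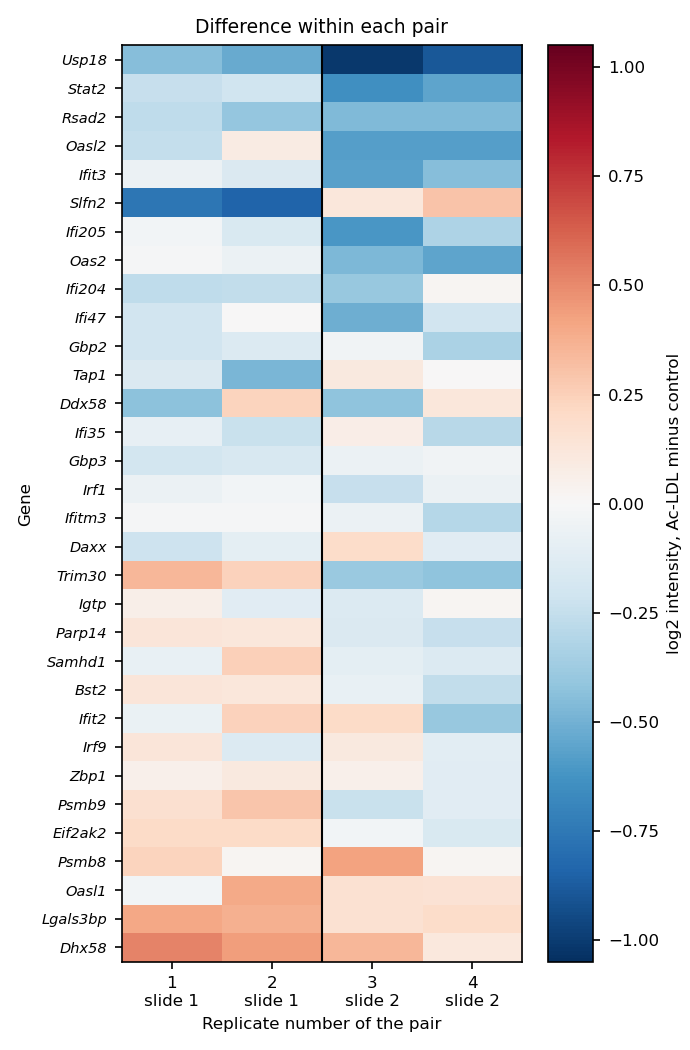
Difference in log2 intensity (Ac-LDL minus control) within each pair of like-numbered arrays, for the 32 tested genes in the order of their mean difference. Blue is lower and red higher with Ac-LDL, and the black line separates the slides. Usp18, Stat2 and Rsad2 are blue in all 4 pairs, and Slfn2 and Trim30 change colour between the slides.

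The 5 tested genes that hold the word GAAACTGAAA, whose promoter stretches are printed above, had log2 fold changes from −0.41 to −0.02. Stat2 lay at −0.41 and Ifit3 at −0.31, whereas Gbp3 lay at −0.12, Igtp at −0.04 and Bst2 at −0.02. Tested genes whose windows lack the word ran from −0.40 for Rsad2 to 0.28 for Lgals3bp. Of all 32 tested genes 25 lay below 0, and a link between the word and the change was not tested.

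The upstream pathway was described by a separate list of 82 genes that are not members, of which 72 had a probe and 49 were tested. In the unblocked limma fit 0 of these had an adjusted p under 0.05, where 0.0483% of all genes did. The replicate block also gave 0 (0.306% of all genes lower and 0.185% higher), as did the slide block (0.25% and 0.0966%). At an unadjusted p under 0.05 the unblocked fit held 0 (2.55% lower and 2.66% higher). The replicate block held Ifi27, Tor3a and Aim2 lower (6.64%) and Ifngr1, Ikbke and Psme2 higher (7.21%). These genes were looked up after the values were seen. The median log2 fold change of the 49 was −0.02, with 28 below 0 and 21 above. None of the 8 ligands, which included Ifnb1, Ifna1, Ifna2, Ifna4, Ifna5, Ifnk, Ifng and Il10, had a probe detected on 4 arrays. 7 of 8 receptors and receptor kinases were tested, with a median of −0.03, and of the type I pathway Ifnar2 lay at 0.08, Jak1 at −0.11 and Tyk2 at −0.03. Ifngr1, a chain of the interferon-γ receptor named here after its values were seen, lay at 0.40 (SE 0.24, limma adjusted p = 0.961, and 0.114 with the replicate block) and was higher in all 4 pairs. The 6 tested transcription factors had a median of 0.07. The 8 sensors and adaptors had a median of −0.02, and of the 6 inhibitors Socs3, which blocks the receptor kinases, lay at 0.00 with an SE of 0.23.

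The other interferon-stimulated genes of that list, 23 tested, had a median of −0.04. Ifi27, named here after its values were seen, had the lowest log2 fold change among them. It read 7.60, 8.14, 9.46 and 10.18 on control arrays 1 to 4 and 7.20, 8.12, 7.85 and 8.41 on Ac-LDL arrays 1 to 4. The controls of the second slide stood above all other arrays, whereas the second pair hardly differed. The log2 fold change was −0.95 (SE 0.50, 95% interval −2.07 to 0.17, limma adjusted p = 0.960, and 0.195 with the replicate block).

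**Figure D5:**
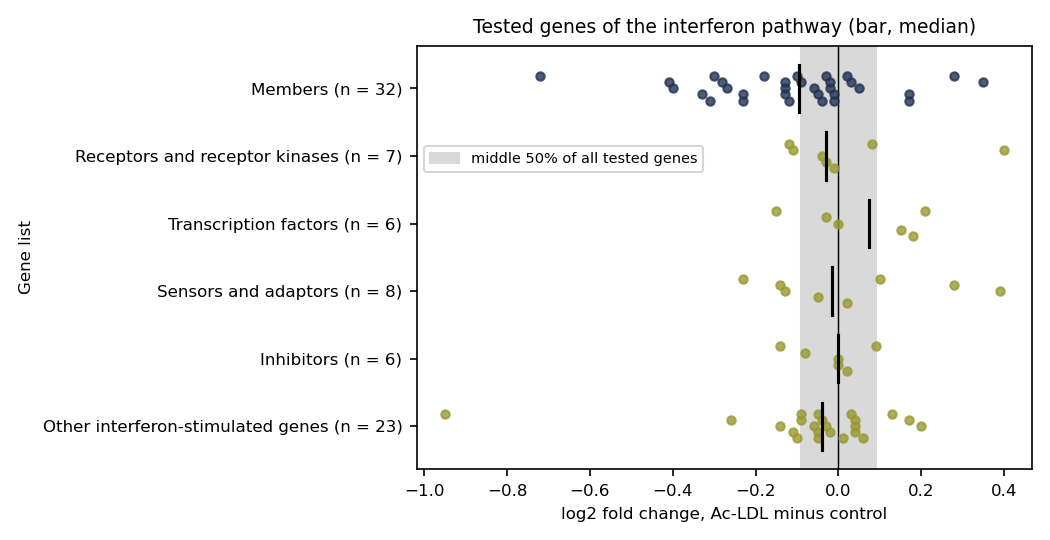
log2 fold change (Ac-LDL minus control) of each tested gene, for the 32 interferon-stimulated genes described here and for the groups of the separate pathway list, with the median as a black bar. Adar stands in 2 groups, and the grey band holds the middle 50% of all tested genes. The pathway groups have medians between −0.04 and 0.07, beside −0.10 for the 32 genes.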

How the data were processed

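Total RNA of 8 samples was hybridized to Illumina Mouse WG-6 v2.0 bead arrays. The authors deposited, per probe and array, the mean bead intensity without normalization, a detection p-value against negative controls, the bead standard error (a signal in intensity units) and a bead count, and per the labels BeadStudio made these values. The authors' GeneSpring-normalized values were not used. No genome build is given in the annotation columns.

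Intensities were corrected by normexp with negative-control moments inferred from the deposited detection p-values (offset 16), quantile-normalized and log2-transformed (neqc, limma 3.58.1, R 4.3.3). Probes with a detection p of at most 0.05 on at least 4 of 8 arrays were tested, 17122 of 45281, by a 2-group linear model with moderated statistics and Benjamini-Hochberg adjustment over all tested probes, and were called under 0.05. The study's test was unpaired. A gene was taken by its tested probe with the highest mean, and p values of members were never adjusted over the list alone. Scripts were tested on simulated data. The median bead count per probe was 43 to 44, and the number of arrays limits the precision.

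Deviations from group means correlated at 0.579, 0.479, 0.468 and 0.629 within pairs of the same replicate number in the labels, and at 0.343, 0.429, 0.447 and 0.188 between different numbers on the same slide, so part of this is shared slide. The numbers were taken to pair the arrays because every pair exceeded 0.1. Different numbers on the same slide exceeded 0.1 too, so this limit cannot tell pairing by number from a shared slide. Alternatives were another background correction, scaling, filter, block, prior, array weights, single slides, the methods' t-test and leaving out each array, and the interaction with slide was added after seeing the data. Values on every array were given for members called in the unblocked or either blocked fit and those with an unadjusted p under 0.05. They were also given for the 5 largest differences each way and the best-known members with a tested probe, including Isg15 by its identifier. The best-known Ifit1, Irf7 and Mx1, which were not tested, were given by the range of their intensities. Slfn2 and Trim30 were chosen after their values were seen. The word shared by promoters was found by counting all words of 10 bases in the reference windows. The members and lists were chosen with earlier results of these data known. Of the 72 probes, 67 had a gene identifier in the RefSeq table, 64 with the same symbol.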

Additional observations from a re-analysis of the deposited data

How the results depend on the processing

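With the replicate number as a block, for arrays paired by that number, 1 gene of the list was called (Usp18, log2 fold change -0.72, limma adjusted p = 0.0393), 9 genes were lower and 2 higher at an unadjusted p under 0.05, and 76 of all tested probes were called in place of 7. The block changed no other call among the genes with values on every array. In every other setting run, 0 genes of the list were called, leaving out each array in turn included (0 to 0). At an unadjusted p under 0.05, where 5 were lower and 0 higher, 8 were lower and 2 higher with the slide as a block, 3 lower and 2 higher within the first slide, 8 lower within the second slide, and 3 lower by the methods' t-test. Leaving out each array gave 2 to 6 lower and 0 to 2 higher, with 2 lower without control 3, Ac-LDL 3 or control 4. The share of all genes is not given for single slides, left-out arrays or, by direction, the t-test. Those counts are therefore not set against all genes. Oas2, detected on no Ac-LDL array, was among the genes lower with either block. Among all tested probes, 0 were called with background subtraction, 0 without a filter, 26 with median scaling, 55 with the slide as a block, 14 within the first slide, 16 within the second, 16 with a trended robust prior, 16 with array weights, 0 by the methods' t-test (1039 unadjusted) and 0 to 15 without each array. The cause was not tested.

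The median of the list, -0.10, was -0.20 with median scaling, which moved the median of all probes to -0.09 and put 73.6% of them below 0. It was -0.03 without a filter, over 46 genes, -0.04 within the first slide, and -0.11 to -0.05 without each array. Between 19 and 28 of the 32 genes lay below 0 in the settings that tested all 32. Eif2ak2 turned to -0.08 with median scaling and to -0.10 within the second slide. Without each array Usp18 lay between -0.93 and -0.53, Rsad2 between -0.48 and -0.31, and Dhx58 between 0.21, without control 1, and 0.47. Without control 1 or Ac-LDL 3 Psmb8 was 0.10, and Oasl1 was 0.09 without Ac-LDL 2 and 0.27 without Ac-LDL 1. The 14 untested genes, 10 of them undetected on every array, are limited by signal over background. With 4 arrays a group on slides that differ this much, a p that misses the threshold does not show that a gene did not differ.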
